A study of Mus musculus with 2 samples.

Results

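The respiratory chain subunits encoded in the nucleus were 83 of the 23889 gene symbols in the deposited RNA sequencing tables. They were taken by symbol alone, as every symbol of the Nduf a, b, c, s and v series followed by a digit (complex I, 36 genes), Sdha to Sdhd (complex II, 4 genes), every Uqcr symbol (complex III, 8 genes), the Cox4i to Cox8 series (complex IV, 18 genes) and every Atp5 symbol (complex V, 17 genes). Ndufa4l2, pseudogene symbols and the Ndufaf assembly factors were left out. The rule used no measured value. The samples were E14 cells, a mouse embryonic stem cell (mESC) line grown without feeders on gelatin in serum medium with LIF. They were transfected either with a control shRNA (genotype label Normal) or with an USP21 shRNA (genotype label USP21 knockdown), and total RNA was taken 3 days later. Each group had 1 library, so no value below has a replicate check and no test between the groups was possible. The labels do not say which USP21 shRNA was used, nor whether the cells were a clone or a pool.

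The respiratory chain sits in the inner mitochondrial membrane. Complexes I and II pass electrons from NADH and succinate to coenzyme Q, complex III passes them to cytochrome c, complex IV hands them to oxygen, and complex V (ATP synthase) makes ATP from the proton gradient that complexes I, III and IV build. Most subunits come from nuclear genes and a small core from mitochondrial DNA. Mouse embryonic stem cells in LIF use both respiration and glycolysis. Mitochondrially encoded subunits had no value under the 13 symbols looked up (mt-Nd, mt-Cytb, mt-Co and mt-Atp symbols), so they are not described here.

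Values are FPKM as deposited, that is fragments scaled for transcript length and library depth. A log2 ratio divides the USP21 shRNA value by the control value after 0.1 was added to each, so a negative ratio is a lower level with the USP21 shRNA. Genes that reached an FPKM of 1 in either library were kept (11927 genes), and 1.5-fold was the size used to single out genes. Usp21 itself stood at 26.2 FPKM in control cells and at 3.49 after its shRNA, a log2 ratio of -2.87. All FPKM together came to 613617 (control) and 543206 (USP21 shRNA), a difference of -0.18 on the log2 scale, and from the steps in the low values the control library was about 1.23 times as deep. The files hold no counts, so no interval was formed. All 8 stem cell markers examined were well detected, between 76.5 and 1849 FPKM over both libraries, and all 8 were lower with the USP21 shRNA (median log2 ratio -0.26). Their log2 ratios ran from -0.86 (Nanog) to -0.14 (Sox2). Of all genes kept, 49.6% were also lower. Among genes outside the respiratory chain set with a geometric mean of 200 FPKM or more, 84.3% were lower, with a median of -0.24. Not all 8 markers reached that level. Of 6 endoderm markers 4 passed the filter below, with a median of -0.08. Fibroblast markers were low (Lum at 0 in both libraries, Col3a1 under 0.01), apart from Thy1 at 17.3 and 5.29 and Pdgfrb at 1.65 and 1.14. The libraries also differed along transcript length, with a median log2 ratio of -0.22 for other genes with transcripts under 600 bases and 0.15 for those of 4000 bases and more, and this bears on every value below because respiratory chain transcripts are short.

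Of the 83 genes 80 passed the FPKM filter, and 76 of these 80 were lower in the USP21 shRNA library, against 49.6% of all 11927 genes. Their median log2 ratio was -0.29 (quartiles -0.40 and -0.20), against 0.00 for all genes (quartiles -0.22 and 0.24). The standard deviation of the log2 ratio across the 80 genes was 0.22, against 0.48 across all genes, most of them less abundant, and 8 of the 80 (10%) were at least 1.5-fold lower, against a background of 6.46% in that direction. None was 1.5-fold higher, against a background of 7.77%. At 2-fold or more lower there was 1 (Cox4i2), against 2.03% of all genes, and none was 2-fold higher, against 2.3%. Cox4i2 and Cox8c, both among the 8, reached an FPKM of 1 only in the control library. The filter therefore favoured a lower ratio for them. Among other genes with transcripts under 600 bases 16.8% were 1.5-fold lower, against 3 of 30 respiratory chain genes. From 600 to under 1000 bases 11.6% of other genes were, against 4 of 24. Under 1000 bases and at a geometric mean of 100 FPKM or more, 5.73% of 227 other genes were, against 4 of 45. Without the tissue isoforms of complex IV, 6 of 76 genes (7.89%) were 1.5-fold lower. In these bulk samples less RNA per cell and fewer cells carrying it cannot be told apart.

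The levels themselves were high and kept their order. In the control library 68 of the 83 genes were at 100 FPKM or more, with a median of 179.4 and a maximum of 1217 for Atp5b, and in the USP21 shRNA library 61 were, with a median of 137.1. Across the 80 genes the log2 levels of both libraries had a Pearson correlation of 0.993 (all genes 0.975), which is across genes that share both libraries and is a description only. Summed, the 83 genes took 3.72% of all control FPKM and 3.43% of all FPKM after the USP21 shRNA. This share does not depend on the scaling between the libraries. By complex the shares were 0.922% and 0.851% for complex I, 0.0840% and 0.0844% for complex II, 0.423% and 0.382% for complex III, 1.005% and 0.919% for complex IV, and 1.28% and 1.19% for complex V. Only the share of complex II was not lower with the USP21 shRNA.

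**Figure D1:**
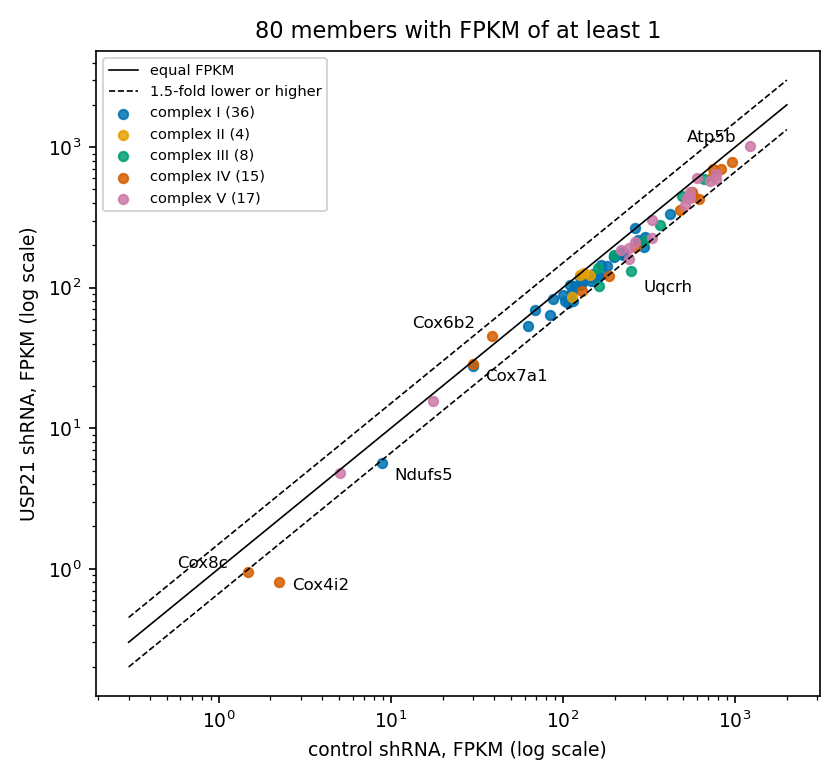
FPKM of the 80 genes past the filter after control shRNA (x axis) and after USP21 shRNA (y axis), both on log scales, 1 point per gene, coloured by complex. Most points lie between the line of equal FPKM and the dashed line of 1.5-fold lower, and Cox6b2 lies above equality at 38.6 and 45.0.

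Much of this shift was also seen in other genes of the same length and level. The reference transcripts of the 83 genes had a median length of 704 bases, against 2683 for all genes past the filter that had a transcript, and 57 of the 83 were under 1000 bases. Among genes with transcripts under 1000 bases and a level (geometric mean of both libraries) of 100 FPKM or more, the 45 respiratory chain genes had a median log2 ratio of -0.32, with 97.8% below 0, and the 227 other genes had a median of -0.31 (quartiles -0.44 and -0.15), with 89.0% below 0. Without ribosomal protein symbols (Rps, Rpl, Mrps and Mrpl) the other genes were 159, with a median of -0.23 and 84.3% below 0. Among genes of 1000 bases and more at the same level, the medians were -0.21 for 18 respiratory chain genes and -0.13 for 601 others. The trends in level and in length were also both removed by lowess, an alternative chosen after seeing the data. The median of the 80 genes was then -0.02 and 45 of them were below 0, with a median of 0 for all genes. What produced the trend between the libraries was not tested.

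**Figure D2:**
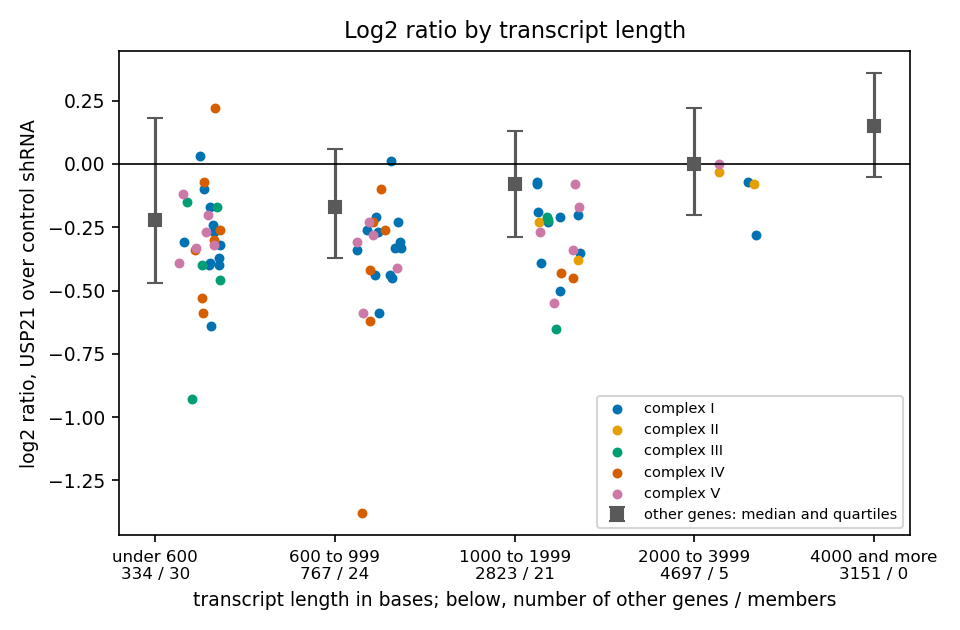
Log2 ratio (y axis) in 5 classes of transcript length (x axis), with the median and quartiles of the other genes as squares and bars and each respiratory chain gene as a point coloured by complex. The medians of the other genes go from -0.22 under 600 bases to 0.15 at 4000 bases and more, and the respiratory chain genes have a median of -0.32 in both classes under 1000 bases and -0.07 from 2000 to under 4000 bases.

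As deposited, complexes I, III, IV and V lay close together and complex II was the least lowered, but with the length trend removed complex II (-0.11) was level with complex V (-0.11) and near complex I (-0.13). The median log2 ratios were -0.29 for complex I (36 genes), -0.15 for complex II (4), -0.31 for complex III (8), -0.34 for complex IV (15 past the filter) and -0.28 for complex V (17). Rescaling both libraries to the same sum moved the median of all genes by 0.18 and these medians to -0.12, 0.02, -0.13, -0.17 and -0.10, which turned the sign for complex II, and with both trends removed the signs for complexes II, IV and V turned. No difference between complexes was tested. Sdhc and Sdha, the longest transcripts of complex II at 3171 and 2900 bases, were also its least lowered genes. With the length trend removed they remained so, at -0.09 and -0.04, against -0.12 for Sdhd and -0.26 for Sdhb. With the level trend removed complex II was still the least lowered, at -0.02, against medians from -0.15 to -0.08 for the others.

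**Figure D3:**
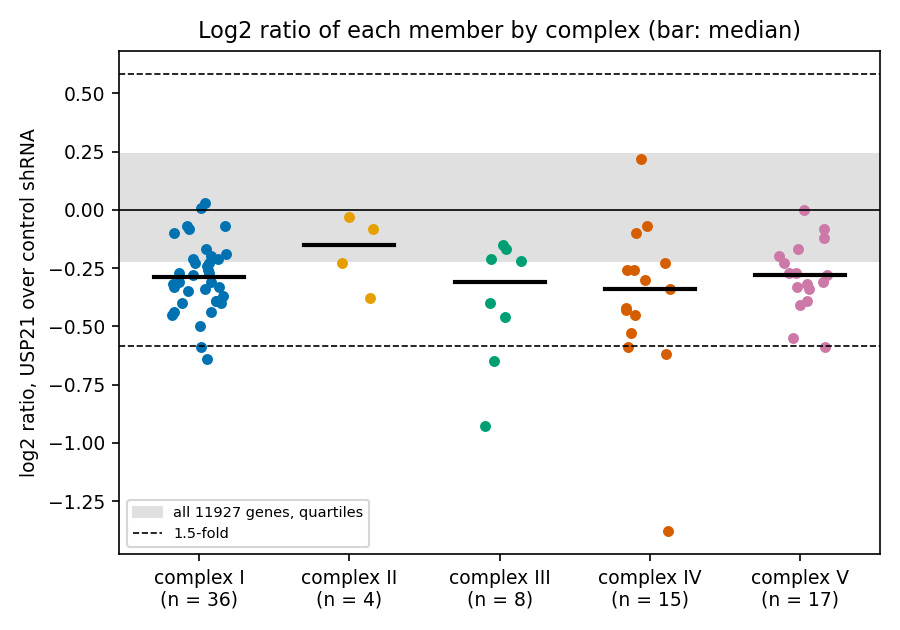
Log2 ratio of every gene past the filter by complex, with a bar at each median, a grey band for the quartiles of all 11927 genes and dashed lines at 1.5-fold. The medians of complexes I, III, IV and V lie between -0.28 and -0.34 and that of complex II at -0.15, which equal sums would move above 0 and which removal of the length trend would leave level with complex V, and Cox6b2 of complex IV is the highest point at 0.22.

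Complex I takes electrons from NADH through a chain of iron-sulfur clusters in its core subunits, around which many accessory subunits are arranged. The 7 nuclear core subunits were all lower, with a median of -0.21 and a range from -0.50 to -0.07. Ndufv1, which binds NADH and FMN, had 117.5 FPKM in control cells and 102.4 with the USP21 shRNA. Ndufv2, its iron-sulfur partner, had 113.9 and 80.3, the lowest log2 ratio of the core at -0.50. Ndufs1, the large iron-sulfur subunit, had 112.9 and 93.0. Ndufs7 and Ndufs8, iron-sulfur subunits, had 137.8 and 118.8, and 126.7 and 104.8. The least lowered was Ndufs3, with 87.8 and 83.7. Ndufs3 turned above 0 after rescaling to equal sums, at 0.11. The 29 accessory genes had a median of -0.32, and 27 of them were below 0.

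Among the 29 accessory genes 2 (6.90%) were 1.5-fold lower, close to the 6.46% of all genes. Ndufb4, a subunit of the membrane arm, had 295.0 FPKM in control cells and 196.1 with the USP21 shRNA, a log2 ratio of -0.59, which was not past 1.5-fold with equal sums or with either trend removed. Ndufs5 had 8.89 and 5.66, a log2 ratio of -0.64, at a level far under the other complex I genes, the next of which was Ndufa11 at 29.9 in the control library. It was not past 1.5-fold with equal sums (-0.47), with the length trend removed (-0.43) or with a pseudocount of 1 (-0.57). Ndufs5 shares 47.3% of the 31-base words of its transcript with other annotated genes, and the processed pseudogene BC002163 stood at 107.2 and 115.6. Summed over both symbols the values were 116.1 and 121.2, a log2 ratio of 0.06, so the lower value of Ndufs5 was not seen in the sum. Ndufb4 shares 38.3% of its 31-base words with other annotated genes. Ndufa3 and Ndufa5 were the only genes of complex I above 0, Ndufa3 with 261.4 and 267.2 and Ndufa5 with 69.2 and 69.7. The highest level was that of Ndufa4, with 416.3 and 335.2. This protein carries a complex I symbol but is known as a subunit of complex IV, and moving it there left the medians at -0.28 for complex I and -0.33 for complex IV.

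Complex II, which is also the succinate dehydrogenase of the TCA cycle, has no mitochondrially encoded subunit. Sdha, the flavoprotein that oxidises succinate, had 125.9 FPKM in control cells and 123.0 with the USP21 shRNA, a log2 ratio of -0.03. Sdhb, the iron-sulfur subunit, had 112.9 and 86.5, a log2 ratio of -0.38. The membrane anchors Sdhc and Sdhd had 133.1 and 126.4, and 143.4 and 122.5. All 4 genes lay within a narrow band of levels in the control library, and Sdhb left it downwards in the USP21 shRNA library. With equal sums Sdha and Sdhc were above 0, at 0.14 and 0.10.

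Complex III held the lowest log2 ratio of any abundant gene of the chain. Uqcrh, the hinge protein beside cytochrome c1, had 249.5 FPKM in control cells and 131.1 with the USP21 shRNA, a log2 ratio of -0.93. It remained more than 1.5-fold lower under every alternative of scaling, pseudocount, filter, length and level that was run. Of its 31-base words 16.4% occur in other annotated genes. Uqcrc2, a core protein on the matrix side, had 162.0 and 103.4, a log2 ratio of -0.65, and its core partner Uqcrc1 had 199.2 and 171.9, a log2 ratio of -0.21. Uqcrc2 was past 1.5-fold with the length trend removed but not with equal sums, with the level trend removed or with both trends removed. The Rieske iron-sulfur protein Uqcrfs1 had 159.4 and 137.1. The small subunits Uqcrb (297.8 and 216.2) and Uqcr11 (365.5 and 277.0) had log2 ratios of -0.46 and -0.40. Uqcrb shares 54.3% of its 31-base words with other annotated genes. Uqcrq, the most abundant gene of the complex, had 664.7 and 591.9, and Uqcr10 had 494.6 and 445.6. These last genes were the least lowered of the complex and turned above 0 with equal sums, at 0.01 for Uqcrq and 0.03 for Uqcr10.

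In complex IV several subunits exist as alternative isoforms, a widespread form and forms that are best known from heart and skeletal muscle, lung or testis. In both libraries the widespread form made up most of each pair. Cox4i1 had 832.9 FPKM in control cells and 694.9 with the USP21 shRNA, and Cox4i2, a form known from lung and from low oxygen, had 2.26 and 0.805. The log2 ratio of Cox4i2, -1.38, was the lowest of all 80 genes, but it passed the filter only through the control library, which favoured a low ratio. Its share of the Cox4 pair was 0.270% and 0.116%. Cox4i2 stayed more than 1.5-fold lower in the alternatives that kept it, and the filter at an FPKM of 5 removed it. Ndufa4l2, the relative of Ndufa4 that was left out of the set and is likewise known from low oxygen, had 5.99 and 1.17.

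The muscle form Cox7a1 was better represented, at 29.9 FPKM in control cells and 28.4 with the USP21 shRNA. Its widespread partner Cox7a2 had 185.8 and 121.0, a log2 ratio of -0.62 that was not past 1.5-fold with equal sums or with either trend removed, so that Cox7a1 made up 13.9% and 19.0% of the pair. The testis form Cox6b2 had 38.6 and 45.0, the highest log2 ratio of the 80 genes at 0.22, while Cox6b1 had 476.0 and 354.6, and the share of Cox6b2 was 7.49% and 11.3%. The other muscle forms were under 1 FPKM, with Cox6a2 at 0.560 and 0.666 and Cox8b at 0.123 and listed at 0. The testis forms Cox7b2 and Cox8c had 0.295 and 0.504, and 1.47 and 0.945. Cox8c, which also passed the filter only through the control library, was past 1.5-fold at -0.59. It lost this with a pseudocount of 1, with equal sums, with the length trend removed and with both trends removed. Cox6a2, Cox7b2 and Cox8b were the 3 genes under the filter. Of 8 striated muscle markers 5 were under 1 FPKM in both libraries, and Myl4 (15.9 and 5.03), Myl7 (5.72 and 1.34) and Tnnc1 (1.06 and 0.559) were lower with the USP21 shRNA. Their part in the values of the muscle forms was not tested.

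**Figure D4:**
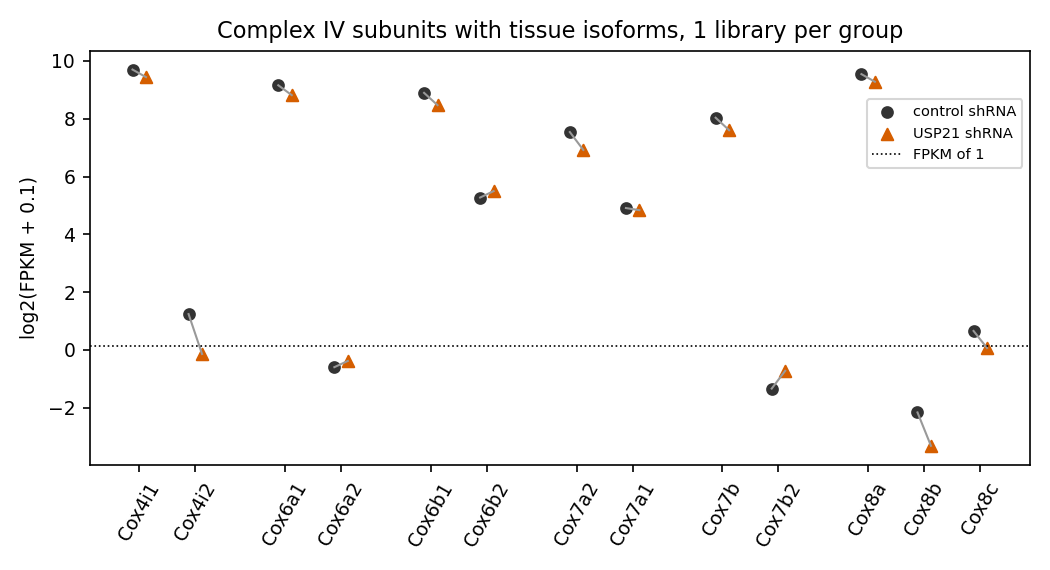
Level of complex IV subunits with alternative isoforms as log2(FPKM + 0.1), control shRNA as dark circles and USP21 shRNA as orange triangles, 1 library each, with a dotted line at an FPKM of 1. Each widespread form is lower with the USP21 shRNA, while Cox7a1 (29.9 and 28.4) and Cox6b2 (38.6 and 45.0) hold their level or lie higher.

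The remaining complex IV genes were abundant. Cox7c had 963.0 FPKM in control cells and 784.6 with the USP21 shRNA, the highest level of the complex. Adding its copies Gm12338 (9.996 and 5.33) and Gm10012 (0 in both) left its log2 ratio at -0.30. Cox6c had 617.2 and 427.1, a log2 ratio of -0.53, and Cox5b had 749.3 and 697.5, a log2 ratio of -0.10. Cox6a1 (571.2 and 450.7), Cox8a (746.8 and 621.6), Cox5a (558.9 and 476.4) and Cox7b (262.1 and 194.4) lay between. Cox7a2l, which takes part in joining complexes III and IV and is not a core subunit of complex IV, had 129.6 and 94.8.

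ATP synthase has a catalytic F1 head, a peripheral stalk that holds it in place, and a ring of c subunits in the membrane. In the F1 head the catalytic beta subunit Atp5b had 1217 FPKM in control cells and 1013 with the USP21 shRNA, and the alpha subunit Atp5a1 had 605.0 and 605.1. These subunits stand in equal number in the enzyme, and the log2 ratios were -0.27 and 0.00. The other F1 genes Atp5c1 (241.8 and 191.6), Atp5d (218.7 and 186.1) and Atp5e (327.5 and 300.9) had log2 ratios of -0.34, -0.23 and -0.12. As deposited, the 4 peripheral stalk genes were the most lowered group of complex V, with a median of -0.44, and this ranking was not repeated under other settings. Among them Atp5j had 242.1 and 160.9, a log2 ratio of -0.59, and Atp5f1 had 330.4 and 224.9, a log2 ratio of -0.55, while Atp5h and Atp5o had -0.33 and -0.28. Atp5j was no longer past 1.5-fold with equal sums or with either trend removed. Atp5f1, Atp5h and Atp5o share 28.9%, 79.4% and 31.2% of their 31-base words with other annotated genes.

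The identical c subunit is made from the genes Atp5g1, Atp5g2 and Atp5g3, which differ in the leader that sends the protein to mitochondria. They had 547.5, 773.5 and 711.2 FPKM in control cells and 476.3, 589.5 and 575.6 with the USP21 shRNA. Their shares of the sum were 26.9%, 38.1% and 35.0%, and 29.0%, 35.9% and 35.1%, with Atp5g2 the largest in both libraries. The words of Atp5g2 all occur in other annotated genes, and 67.3% of those of Atp5g1 do. Atp5s and Atp5sl, which the symbol rule took in but which are not subunits of the enzyme, were low (5.06 and 4.78, 17.6 and 15.6). Sequence sharing was common in the whole set, as 21 of the 83 genes shared at least 20% of their 31-base words with other annotated genes and how such fragments were assigned is not given in the sources used here. Without those 21 genes the median log2 ratio of the others was -0.27.

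Promoters of respiratory chain genes are known for binding sites of NRF1, of ETS factors such as GABPA, of YY1 and of ERR alpha. Windows from RefSeq (GRCm38.p6), running from 250 bases before to 50 after the gene start, were found for 69 of the 83 genes. On either strand the letters GCATGCGC (NRF1) stood in 14.5% of them, against 3.05% of all 27025 genes with a window and 6.41% of the 9544 that passed the FPKM filter. CCGGAAG (ETS) stood in 23.2%, against 9.93% and 20.9%, and AAGATGGC (YY1) in 15.9%, against 3.19% and 5.51%. The last can overlap CCGGAAG by AAG. TCAAGGTCA (ERR alpha) stood in 2.9% (2 genes), against 0.466% and 0.356%, and TATAAA in 10.1%, against 15.7% and 8.29%. The median log2 ratio was -0.36 for the 10 genes with the NRF1 letters and -0.27 for the 57 without them that passed the filter, -0.32 and -0.28 for ETS, and -0.24 and -0.31 for YY1. The ratios of genes with the letters ran from -0.45 to -0.10 for NRF1, from -0.93 to -0.07 for ETS and from -0.59 to 0.03 for YY1.

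The windows below belong to the gene with the lowest log2 ratio in each complex and to the gene with the highest of all, among genes with an FPKM of at least 5, under 20% shared words and a single window. They are written 5′ to 3′ on the strand of the gene with its start at base 251, and capitals mark the motif letters named above. They lie at chr17:66101510-66101809 (minus strand) for Ndufv2, chr4:140961021-140961320 (plus strand) for Sdhb, chr4:116075021-116075320 (minus strand) for Uqcrh, chr9:79759804-79760103 (minus strand) for Cox7a2, chr5:145191492-145191791 (minus strand) for Atp5j2 and chr7:4753045-4753344 (minus strand) for Cox6b2.
Ndufv2: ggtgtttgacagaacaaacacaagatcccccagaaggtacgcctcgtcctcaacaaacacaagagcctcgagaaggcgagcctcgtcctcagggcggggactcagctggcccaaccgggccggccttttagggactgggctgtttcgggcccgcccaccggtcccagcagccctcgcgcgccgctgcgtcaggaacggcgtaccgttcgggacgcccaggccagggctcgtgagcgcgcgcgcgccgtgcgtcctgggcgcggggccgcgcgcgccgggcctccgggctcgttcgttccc
Sdhb: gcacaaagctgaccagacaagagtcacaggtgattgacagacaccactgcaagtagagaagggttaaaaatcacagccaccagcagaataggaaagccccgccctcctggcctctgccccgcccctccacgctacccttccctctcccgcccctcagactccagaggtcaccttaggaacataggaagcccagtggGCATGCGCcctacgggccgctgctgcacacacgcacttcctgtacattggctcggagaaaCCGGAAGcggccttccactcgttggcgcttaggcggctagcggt
Uqcrh: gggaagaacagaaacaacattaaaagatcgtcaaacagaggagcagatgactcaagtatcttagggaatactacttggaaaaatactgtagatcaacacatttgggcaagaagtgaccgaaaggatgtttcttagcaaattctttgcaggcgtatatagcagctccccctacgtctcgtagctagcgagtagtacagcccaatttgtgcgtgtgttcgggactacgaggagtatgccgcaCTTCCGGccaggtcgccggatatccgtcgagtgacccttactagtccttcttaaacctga
Cox7a2: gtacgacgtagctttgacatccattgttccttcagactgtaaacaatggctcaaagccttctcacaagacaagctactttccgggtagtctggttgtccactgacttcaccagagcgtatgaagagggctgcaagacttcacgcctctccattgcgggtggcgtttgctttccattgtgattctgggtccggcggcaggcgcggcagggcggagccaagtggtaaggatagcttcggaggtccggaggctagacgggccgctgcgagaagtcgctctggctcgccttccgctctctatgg
Atp5j2: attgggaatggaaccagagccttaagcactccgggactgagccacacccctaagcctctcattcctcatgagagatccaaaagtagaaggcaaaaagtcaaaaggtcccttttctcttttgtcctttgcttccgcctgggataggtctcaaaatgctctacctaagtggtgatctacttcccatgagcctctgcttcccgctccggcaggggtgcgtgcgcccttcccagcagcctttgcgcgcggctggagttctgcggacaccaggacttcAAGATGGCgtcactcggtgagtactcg
Cox6b2: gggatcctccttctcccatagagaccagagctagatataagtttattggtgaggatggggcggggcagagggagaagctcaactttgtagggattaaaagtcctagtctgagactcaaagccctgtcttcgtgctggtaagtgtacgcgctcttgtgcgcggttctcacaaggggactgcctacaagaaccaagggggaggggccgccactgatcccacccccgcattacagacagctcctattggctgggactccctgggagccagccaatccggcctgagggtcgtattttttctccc

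Sdhb holds the NRF1 letters from base 197 and the ETS letters from base 257, just after the start. Uqcrh holds the ETS letters in reverse (CTTCCGG) from base 241, and Atp5j2, the f subunit of the ATP synthase membrane part with 513.8 and 386.1 FPKM, holds the YY1 letters from base 274. The windows of Ndufv2 and Cox7a2, both lowered, and of Cox6b2, which was higher, hold none of these letters.

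Other mitochondrial genes, taken from lists chosen with earlier results of these data known, had medians from -0.31 to 0.10. Of 46 assembly factors, which help to build the complexes without staying in them, 28 were below 0, with a median of -0.06. Cox20, a chaperone for a mitochondrially encoded complex IV subunit, had 38.7 FPKM in control cells and 18.6 with the USP21 shRNA, Lyrm7, which acts in the insertion of the Rieske protein, had 2.29 and 1.45, and Cox19 had 8.83 and 14.03. These were the 3 assembly factors past 1.5-fold. The share lower was 4.35%, against 6.46% of all genes, and the share higher was 2.17%, against 7.77%. Lyrm7 was not past 1.5-fold with equal sums (-0.45), with the length trend removed (-0.54) or with a pseudocount of 1 (-0.42). The most abundant, the copper chaperone Cox17, had 255.7 and 248.5.

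Of 13 TCA cycle genes 11 were below 0, with a median of -0.12. Citrate synthase (Cs), the entry enzyme of the cycle, was 1.5-fold lower as deposited, at 102.7 and 67.4 FPKM, but not with equal sums (-0.43) or with the level trend removed (-0.52), and Mdh2, the most abundant, had 375.9 and 331.6. Of 16 import genes 14 were below 0, with a median of -0.15, and Timm23, the channel of the inner membrane, had 252.6 and 166.8, a log2 ratio of -0.60 that was -0.42 with equal sums and -0.48 with the length trend removed. The phosphate carrier Slc25a3, which feeds ATP synthase, had 509.1 and 352.7, while the ADP/ATP carrier Slc25a5 had 685.8 and 734.8. Subunits and carriers outside the symbol rule (Ndufab1, Cyc1, Cycs, Atpif1, Usmg5 and Ndufa4l2) had a median of -0.31 and were all below 0, the most abundant being Usmg5 at 314.3 and 231.2. With equal sums the medians of the assembly factors, the TCA cycle and import were above 0, at 0.12, 0.06 and 0.02.

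The regulators of these genes had levels close to each other in both libraries. Of 12 past the filter 5 were below 0, against 49.6% of all genes, with a median of 0.05. None was past 1.5-fold, against 6.46% of all genes lower and 7.77% higher. The median of the regulators was 0.22 with equal sums. With the level and length trends both removed it was 0.01, against -0.02 for the respiratory chain genes. Nrf1 had 28.1 FPKM in control cells and 30.2 with the USP21 shRNA, Gabpa had 37.2 and 36.9, Esrra had 17.0 and 19.4, and Yy1 had 36.5 in both. Tfam, which packs mitochondrial DNA and activates its transcription, had 29.3 and 24.8, the lowest log2 ratio of the list at -0.24. The coactivator Ppargc1b had 2.00 and 2.15, Pprc1 had 40.8 and 45.4, and Ppargc1a was at 0.00589 and 0, under the filter. Coenzyme Q synthesis genes had a median of 0.10, with 5 of 12 below 0. Coq4 (6.39 and 9.87) was the only one past 1.5-fold, that is 8.33% higher, against 7.77% of all genes. It was not past 1.5-fold with the level trend removed (0.54) or with a pseudocount of 1 (0.56). The most abundant of them, Coq7, had 74.6 and 64.2.

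**Figure D5:**
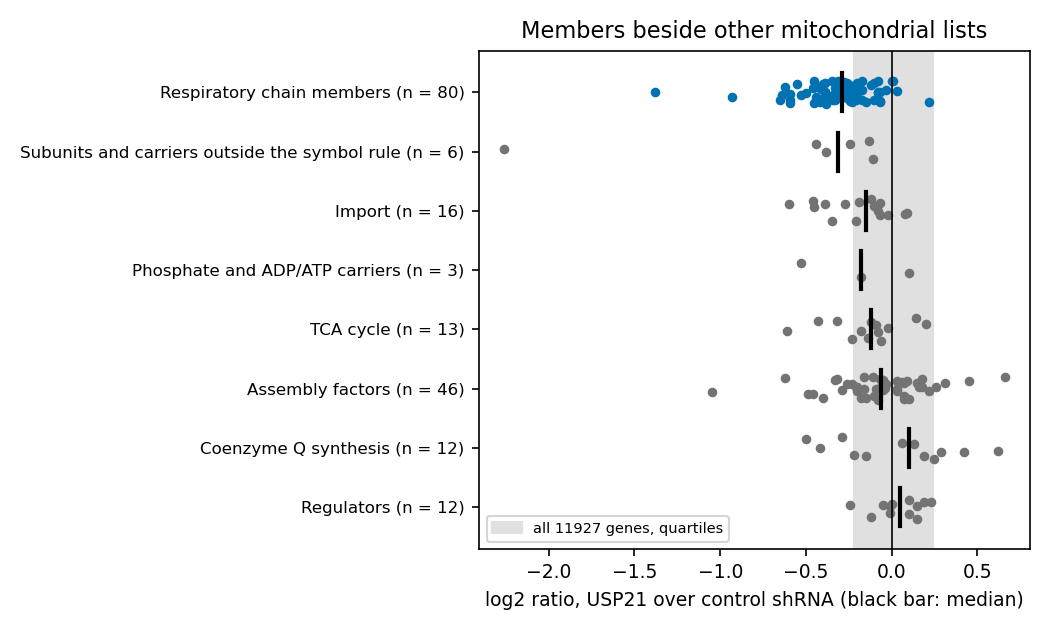
Log2 ratio of each gene past the filter (x axis) in the respiratory chain set (blue) and in 7 other mitochondrial lists (grey), with a black bar at each median and a grey band for the quartiles of all 11927 genes. As deposited, the respiratory chain median lies at -0.29, the assembly factors at -0.06 and the regulators at 0.05. With the level and length trends both removed these medians were -0.02, 0.01 and 0.01.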

How the data were processed

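The FPKM values were deposited by the authors, 1 per gene symbol and library. Per the labels, CASAVA 1.8.2, TopHat2 2.0.14 and Cufflinks 2.2.1 and build mm9 were used. The gene annotation and the handling of fragments that match several genes are not given in the sources used here, and the paper does not describe this sequencing. From these values log2 ratios with a pseudocount of 0.1 were computed for genes that reached an FPKM of 1 in either library. With 1 library per group no test was made. A gene counted as lower or higher at 1.5-fold. Transcript lengths came from GENCODE M21 (GRCm38; the transcript with the longest coding sequence, the shortest in ties), matched for 23527 of 23889 symbols (98.5%) and for all 83 members, and 31-base words were compared with all other annotated transcripts on the sense strand. Promoter windows came from RefSeq. Trends were fitted by lowess with a span of 0.3. Named genes were those past 1.5-fold, the extremes of each complex, complex II, the core of complex I, F1, tissue isoforms, and the extremes of other lists; further members and regulators were named after their values were seen. One gene that the rule names is not reported here. The members and lists were chosen with earlier results of these data known. The other settings tried were a pseudocount of 1 or 0.01, dropping the filter or raising it to FPKM 5, equal sums, a median of 0, a 2-fold limit, removal of the length trend, and leaving out or moving members; removal of the level trend was added after seeing the data. The functions were tested on simulated data. Python 3.11.15, numpy 2.4.6, pandas 2.3.3, statsmodels 0.14.6 and matplotlib 3.10.9 were used.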

Additional observations from a re-analysis of the deposited data

How the results depend on the processing

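The pseudocounts, the filters, setting the median of all genes to 0, the sharing of sequence, the genes that are not subunits and the place of Ndufa4 moved no median by 0.1 or more on the log2 scale. Without a filter 1 gene (Cox7b2) was 1.5-fold higher. Equal sums gave medians of -0.11 for the respiratory chain genes, -0.12, 0.02, -0.13, -0.17 and -0.10 for complexes I to V, 0.12 for assembly factors, 0.06 for the TCA cycle, 0.02 for import, -0.01 for the phosphate and ADP/ATP carriers, 0.22 for regulators, 0.27 for coenzyme Q synthesis and -0.13 for subunits and carriers outside the symbol rule. With the length trend removed the medians were -0.12 for the respiratory chain genes, -0.13, -0.11, -0.16, -0.14 and -0.11 for complexes I to V, 0.04 for assembly factors and -0.19 for subunits and carriers outside the rule. With the level trend removed they were -0.13 for the respiratory chain genes, -0.15, -0.02, -0.14, -0.10 and -0.08 for complexes I to V, -0.02 for the phosphate and ADP/ATP carriers, -0.01 for the TCA cycle and -0.17 for subunits and carriers outside the rule. With both removed they were -0.02 for the respiratory chain genes, -0.04, 0.02, -0.04, 0.02 and 0.04 for complexes I to V, 0.01 for assembly factors, 0.02 for the phosphate and ADP/ATP carriers, 0.06 for the TCA cycle and -0.10 for subunits and carriers outside the rule, and 45 respiratory chain genes were below 0. The 8 genes that were 1.5-fold lower became 6 with a pseudocount of 1, 6 with the filter at an FPKM of 5 and 2 with equal sums (Cox4i2 and Uqcrh). They became 3 with the length trend removed, 4 with the level trend removed, 3 with both removed and 1 at 2-fold. Apart from the 2-fold limit, no share of all genes was formed for these counts. Equal sums raised the median of all genes to 0.18, with 29.3% of them below 0, against 62 of the 80 respiratory chain genes. With the length trend removed 50.4% of all genes were below 0, against 66 of the 80. With both trends removed the median of all genes was 0.

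Of 59 genes covered by the rule for named genes, the sign of 8 turned with equal sums. Of the 56 with a value after trend removal, 6 turned with the length trend removed, 11 with the level trend removed and 19 with both. None of these was past 1.5-fold as deposited. Depth per gene is unknown, so genes under an FPKM of 1 carry no precision. No paired analysis was possible because each group has 1 library.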
